A study of Sus scrofa with 6 samples.

Results

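The SLC25 genes encode the family of mitochondrial carriers, most of which are proteins of the inner mitochondrial membrane. The 34 members described here are the rows of the deposited gene table whose pig Ensembl symbol starts with SLC25A, out of 12671 loci, 9764 of which have a symbol. RNA was sequenced from the longissimus dorsi, a back muscle, of female QingYu pigs (written Qinyu in the sample labels), a Chinese breed kept for both meat and fat. The older pigs were at the plateau phase (PP) of growth at 395 days and the younger pigs at the growth inflection point (IP) at 178 days, when growth is fastest, with 3 biological replicates each and no treatment or transgene. The growth notes give these 2 ages, while the age tag of all 6 libraries reads 178 days, so the phase is taken from the sample titles. Further SLC25A symbols of the RefSeq pig annotation, 11 of 45, have no row under such a symbol here and were not analysed.

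The inner mitochondrial membrane is closed to charged metabolites, and each carrier lets a small set of them pass, in most cases in exchange for another. ADP/ATP and phosphate carriers feed ATP synthase and export ATP, the aspartate/glutamate and oxoglutarate carriers form the malate-aspartate shuttle that brings reducing power from glycolysis into the matrix, and the carnitine carrier brings fatty acids in for oxidation. In skeletal muscle the ADP/ATP carrier SLC25A4 (ANT1) is the characteristic member, and its loss causes myopathy in mice.

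Expression was deposited as TPM, a share of a library's transcripts that accounts for transcript length, so levels of different genes can be compared within a library. The number of reads behind a TPM value is unknown, so error is given by the replicates of a phase alone. The median TPM of all loci was 2.98 to 4.52 in the PP libraries and 3.03 to 6.12 in the IP libraries, while the most abundant locus took 29.0 to 35.8% of the TPM at the PP and 21.8 to 31.9% at the IP. On the first principal component, which held 64.3% of the variance, PP replicate 2 lay with IP replicates 1 and 2, and IP replicate 3 lay with PP replicates 1 and 3. Log2 fold changes are PP minus IP of log2(TPM + 1), and the median over all 10896 tested loci was -0.26 (0.01 after median-ratio scaling, in which a library is divided by the median of its ratios to the geometric mean of the libraries), so a member's change is read against that shift. Muscle fibre markers were abundant throughout, with a sum over 6 measured markers of 33308 to 54112 TPM in PP libraries, against 38971 to 58985 TPM at the IP. In bulk tissue, fewer cells of a type and less RNA per cell cannot be told apart.

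All 34 carriers were above 0 TPM in each library, at levels that spanned from 0.416 TPM for SLC25A22 in PP replicate 3 to 1670.0 TPM for SLC25A4 in PP replicate 1. SLC25A4, which exchanges cytosolic ADP for matrix ATP, had 1670.0, 1086 and 1379 TPM in PP muscles, against 917, 1479 and 1162 TPM in IP muscles. It alone made up 64.8 to 76.6% of the summed SLC25A TPM at the PP and 59.1 to 70.7% at the IP. SLC25A3, the phosphate carrier, which supplies the other substrate of ATP synthase, was the next with 273, 252 and 267 TPM in PP replicates 1 to 3, against 301, 342 and 246 TPM in IP replicates 1 to 3. Together these carriers of ATP synthesis held 79.8 to 89.1% of the family's TPM at the PP and 78.5 to 85.6% at the IP, ranges that overlap.

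The third most abundant member was SLC25A11, the oxoglutarate/malate carrier, with 36.1, 35.8 and 37.5 TPM in PP muscles, against 63.2, 91.5 and 34.4 TPM in IP muscles. The PP libraries lay within a narrow range and IP replicate 3 lay just below them, while IP replicates 1 and 2 were higher. SLC25A36, a pyrimidine nucleotide carrier, had 20.6, 51.4 and 30.7 TPM in PP replicates 1 to 3, against 44.2, 56.4 and 26.5 TPM in IP replicates 1 to 3. SLC25A25, a calcium-sensing ATP-Mg/phosphate carrier, had 11.4, 44.8 and 17.3 TPM in PP muscles, against 27.5, 44.7 and 26.4 TPM in IP muscles. For both genes PP replicate 2 was close to the highest IP library and the phases overlapped. In the order by mean TPM, SLC25A4 lay above SLC25A3 and SLC25A3 above SLC25A11 with no overlap of their 6 libraries, and each of the other 31 pairs of neighbours overlapped. Below the first 11 genes the levels were low, with 23 members under a mean of 10 TPM and 10 of these under 2 TPM.

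**Figure D1:**
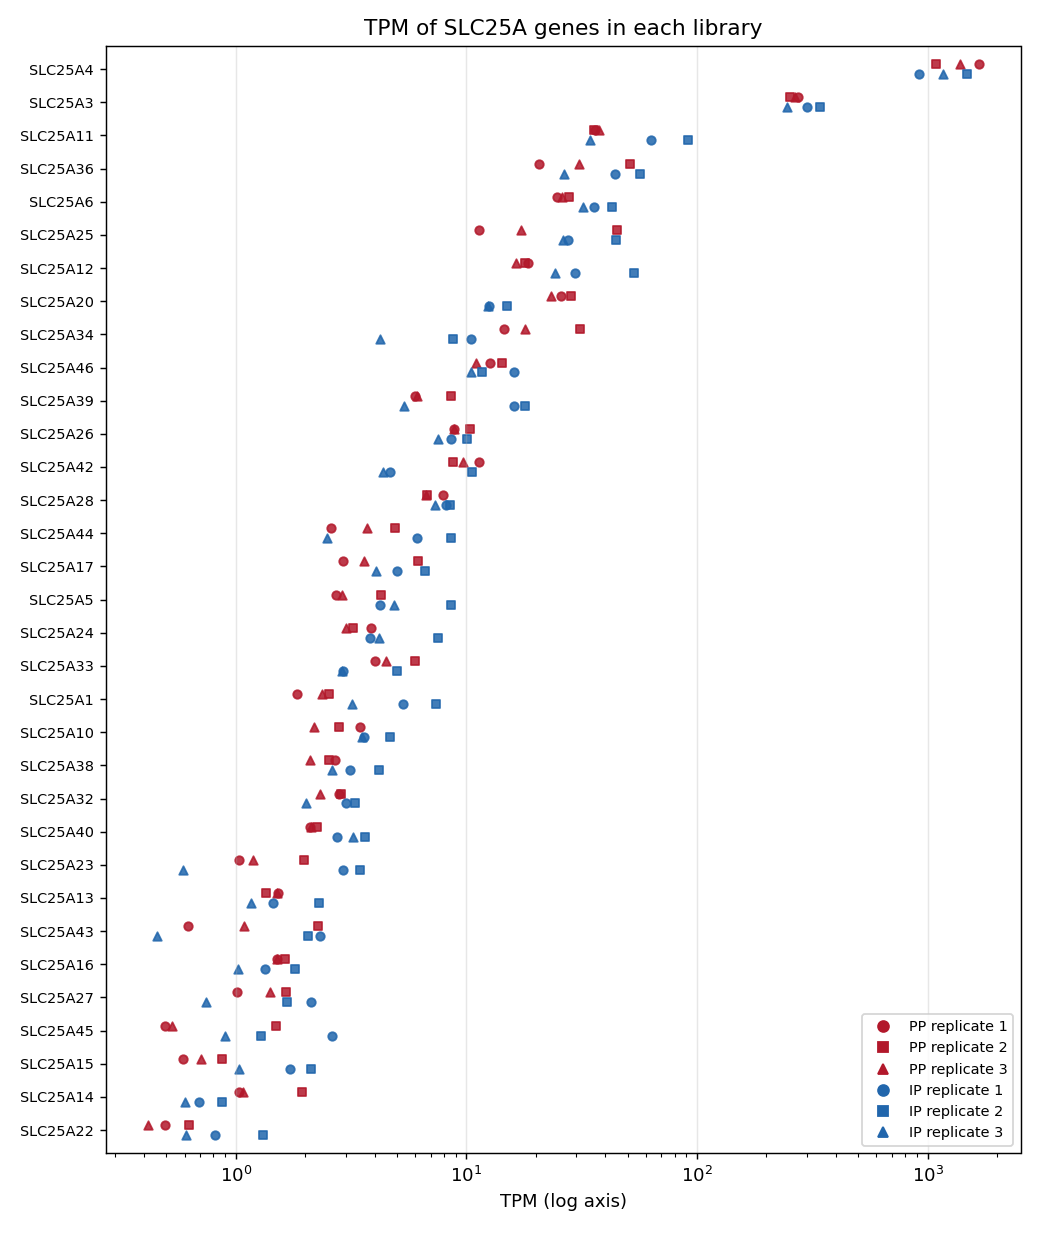
TPM of 33 SLC25A genes in each library on a log axis, with PP libraries in red above IP libraries in blue and genes ordered by mean TPM. SLC25A4 and SLC25A3 stand apart from the other 31 genes, whose levels follow one another without a gap.

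Members varied between libraries of one phase as well as between phases. IP replicate 2 was the highest library for 22 of the 34 genes and IP replicate 3 the lowest for 17. PP replicate 1 was the lowest for 9 genes and PP replicate 2 the highest for 6. The median TPM of the 34 genes was 3.19, 4.59 and 3.31 in PP replicates 1 to 3, against 4.45, 7.46 and 3.79 in IP replicates 1 to 3. IP replicate 2 also had the highest median over all loci, 6.12 TPM. The summed TPM of the family was 1677 to 2181 at the PP and 1553 to 2272 at the IP, which overlap.

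**Figure D2:**
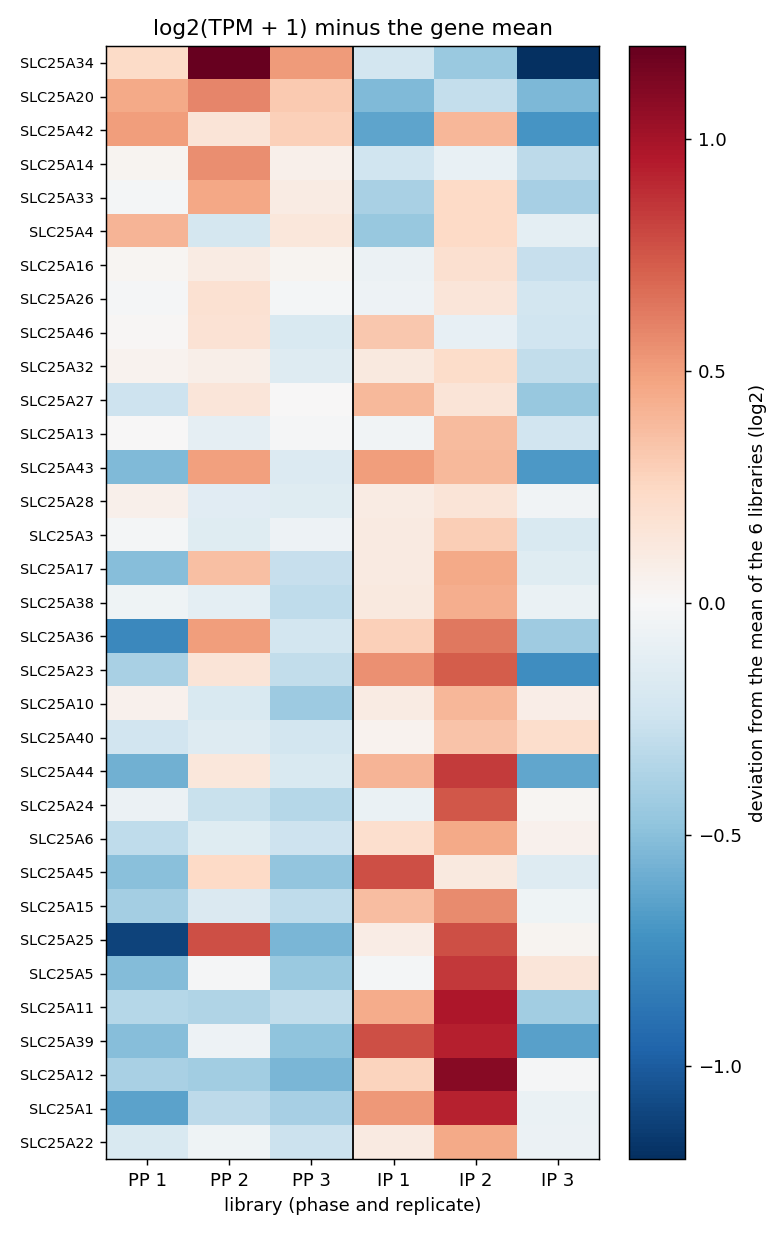
Deviation of log2(TPM + 1) from the gene's mean over the 6 libraries (colour, log2), with PP libraries left of IP libraries and genes ordered by log2 fold change (SLC25A22, not tested, last). The top genes are red in the PP columns and blue in most IP columns, and IP replicate 2 is red for most of the lower genes.

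Whether carrier genes differed between the phases was tested in a limma fit over all loci that reached 1 TPM in 3 or more libraries, a filter which 33 members passed and SLC25A22, a glutamate carrier, did not. SLC25A14 passed only through the PP libraries and SLC25A15 only through the IP libraries. For these the lack of overlap follows from the filter, which favoured a difference. At an adjusted p under 0.05 (Benjamini-Hochberg over all loci), 0 of the 33 members were called, beside 0.147% of all tested loci. On simulated data the same fit called 0% of genes changed 2-fold, so this count does not show that the members were unchanged. The lowest adjusted p was 0.339, for SLC25A20. Without adjustment, limma gave a p under 0.05 for 2 members higher at the PP, SLC25A20 and SLC25A34 (6.06%, beside 1.06% of all loci), and for 3 members lower at the PP, SLC25A1, SLC25A12 and SLC25A15 (9.09%, beside 5.86% of all loci). The members lower at the PP numbered 0 without PP replicate 3 (2.37% of all loci), 1 without PP replicate 1 (3.45% of all loci), 1 without IP replicate 1 (4.14% of all loci) and 8 without IP replicate 3 (24.2%, beside 21% of all loci). The 3 PP libraries lay above all 3 IP libraries for 3 members (9.09%, beside 2.02% of all loci) and below them for 6 members (18.2%, beside 10.8% of all loci). SLC25A14 is counted in the 3 and SLC25A15 in the 6. After median-ratio scaling this balance turned, with 6 of the 33 members above (18.2%, beside 7.26% of all loci) and 3 below (9.09%, beside 6.6% of all loci), since SLC25A16, SLC25A33 and SLC25A42 then no longer overlapped while SLC25A6, SLC25A10 and SLC25A40 did. Of the 33 log2 fold changes, 24 lay below 0 (72.7%, beside 82.6% of all loci) and their median was -0.31, close to the median of all loci.

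**Figure D3:**
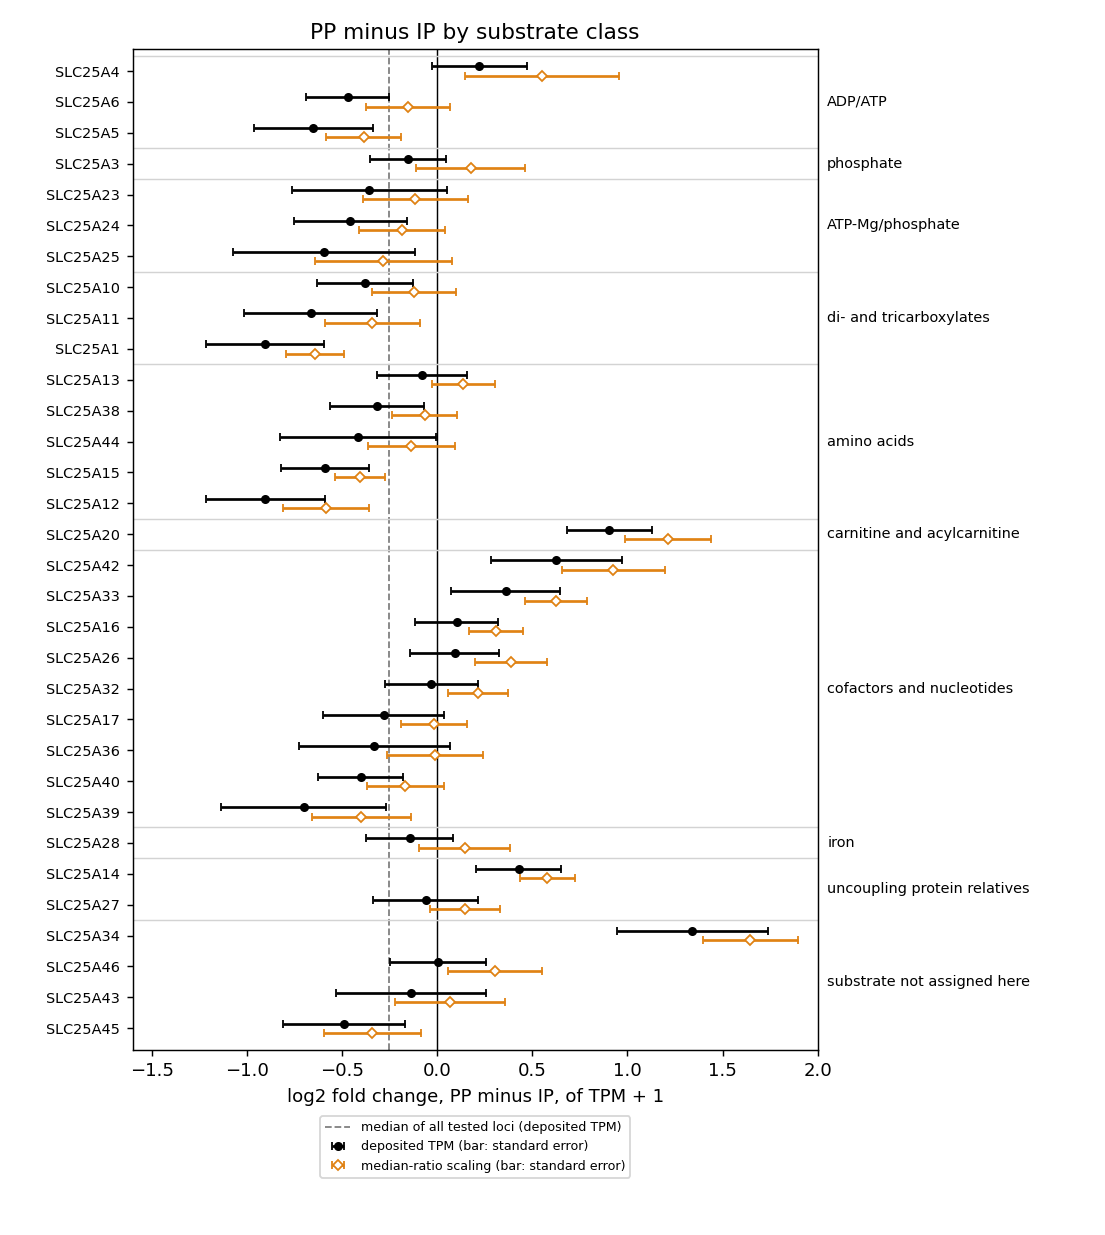
Log2 fold change of TPM + 1, PP minus IP, of 32 tested SLC25A genes by substrate class, for deposited TPM (filled circles) and after median-ratio scaling (open diamonds), with standard errors. SLC25A34 (1.34) and SLC25A20 (0.91) lie farthest to the right of the dashed line at the median of all loci (-0.26), and SLC25A1 (-0.90) and SLC25A12 (-0.90) farthest to the left.

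SLC25A20 is the carnitine/acylcarnitine carrier, which brings long-chain fatty acids as acylcarnitines into the matrix and returns free carnitine. It lies on chromosome 13 from 31523820 to 31553289 of Sscrofa11.1. It had 25.8, 28.4 and 23.3 TPM in PP replicates 1 to 3, against 12.5, 15.1 and 12.4 TPM in IP replicates 1 to 3, so that each PP library was above each IP library. Its mean was 25.8 ± 2.54 TPM in PP pigs, against 13.3 ± 1.51 TPM in IP pigs (SD, n = 3 libraries each), 1.94 times as high at the PP (log2 fold change 0.91, standard error 0.22, adjusted p = 0.339 from limma). Its unadjusted limma p was under 0.05 in each of the 18 alternative settings too. After median-ratio scaling the log2 fold change was 1.21.

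The enzymes on either side of this carrier were read beside it, of which CPT1B, CPT2 and CRAT were named after their values were seen. CPT1B, the muscle form of the outer-membrane enzyme that makes acylcarnitines, had 27.9, 36.2 and 28.3 TPM in PP muscles, against 18.4, 26.9 and 13.0 TPM in IP muscles. CPT1A, the form best known from liver, had 3.34, 5.28 and 3.10 TPM in PP replicates 1 to 3, against 1.03, 2.39 and 0.798 TPM in IP replicates 1 to 3. Both were higher in each PP library than in each IP library, with log2 fold changes of 0.68 for CPT1B and 1.06 for CPT1A (adjusted p = 0.733 and 0.477 from limma). They were the only 2 such genes among 22 tested enzymes that use the carried metabolites, beside 2.02% of all loci. CRAT, another enzyme that uses carnitine, had a log2 fold change of -0.19 with overlap (adjusted p = 0.864 from limma). CPT2, which turns acylcarnitines back into acyl-CoA in the matrix, had 5.50, 4.01 and 4.29 TPM in PP muscles, against 3.67, 6.47 and 2.90 TPM in IP muscles, which overlap.

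SLC25A34, a carrier with no substrate assigned here, lies on chromosome 6 from 74909637 to 74914430 and had the largest log2 fold change among the 33 tested members. It had 14.6, 31.1 and 17.9 TPM in PP replicates 1 to 3, against 10.5, 8.78 and 4.21 TPM in IP replicates 1 to 3. PP replicate 2 and IP replicate 3 were the extremes, and the phases did not overlap (log2 fold change 1.34, standard error 0.39, adjusted p = 0.457 from limma). Its mean was 21.2 ± 8.72 TPM in PP pigs, against 7.81 ± 3.23 TPM in IP pigs (SD, n = 3), and its unadjusted limma p was under 0.05 in all 18 alternatives. SLC25A14, a relative of the uncoupling proteins known as UCP5, had 1.04, 1.93 and 1.08 TPM in PP muscles, against 0.696, 0.870 and 0.604 TPM in IP muscles. These levels are close to the 1 TPM of the filter, which it passed through the PP libraries alone. Its lack of overlap follows from that (log2 fold change 0.43, standard error 0.22, adjusted p = 0.783 from limma). The other measured relative of the uncoupling proteins, SLC25A27, had a log2 fold change of -0.06 (adjusted p = 0.928 from limma), which was 0.14 after median-ratio scaling.

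SLC25A12, also called aralar, exports aspartate from the matrix in exchange for glutamate and is the form of the malate-aspartate shuttle typical of muscle and brain. It lies on chromosome 15 from 77895935 to 78021930. It had 18.4, 17.99 and 16.4 TPM in PP replicates 1 to 3, against 29.6, 53.3 and 24.2 TPM in IP replicates 1 to 3. The PP libraries lay close together and below every IP library, and IP replicate 2 stood above the other IP libraries (log2 fold change -0.90, standard error 0.31, adjusted p = 0.602 from limma). Without IP replicate 2 its log2 fold change was -0.58, and its unadjusted limma p was under 0.05 in 17 of 18 alternatives. Its mean was 17.6 ± 1.06 TPM in PP pigs, against 35.7 ± 15.5 TPM in IP pigs (SD, n = 3). SLC25A13, or citrin, the form of the same carrier typical of liver, had 1.53, 1.35 and 1.504 TPM in PP muscles, against 1.46, 2.30 and 1.16 TPM in IP muscles, with overlapping phases and a log2 fold change of -0.08 (adjusted p = 0.890 from limma) whose sign turned with median-ratio scaling.

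The promoters of SLC25A20 and SLC25A34, the members with the smallest p, are shown beside that of SLC25A12, the most abundant member with an unadjusted p under 0.05 and a lower level at the PP. Each run covers 250 bases before to 50 after the RefSeq gene start in Sscrofa11.1, in the direction of the gene, at chr13:31553240-31553539 (minus strand), chr6:74909387-74909686 (plus strand) and chr15:78021881-78022180 (minus strand). Capitals mark matches, on either strand, to short motifs of factors known to regulate mitochondrial genes.
SLC25A20: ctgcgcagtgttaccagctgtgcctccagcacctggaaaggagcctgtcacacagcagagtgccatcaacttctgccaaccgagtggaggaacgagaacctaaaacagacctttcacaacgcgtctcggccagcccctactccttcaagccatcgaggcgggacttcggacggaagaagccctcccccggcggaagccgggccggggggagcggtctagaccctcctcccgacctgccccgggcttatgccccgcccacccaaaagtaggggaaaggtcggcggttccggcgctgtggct
SLC25A34: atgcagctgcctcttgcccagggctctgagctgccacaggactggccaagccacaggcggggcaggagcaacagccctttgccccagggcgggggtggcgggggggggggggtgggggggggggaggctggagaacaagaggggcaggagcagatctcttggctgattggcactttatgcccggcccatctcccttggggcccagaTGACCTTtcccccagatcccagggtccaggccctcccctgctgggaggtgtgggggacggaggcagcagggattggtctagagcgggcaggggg
SLC25A12: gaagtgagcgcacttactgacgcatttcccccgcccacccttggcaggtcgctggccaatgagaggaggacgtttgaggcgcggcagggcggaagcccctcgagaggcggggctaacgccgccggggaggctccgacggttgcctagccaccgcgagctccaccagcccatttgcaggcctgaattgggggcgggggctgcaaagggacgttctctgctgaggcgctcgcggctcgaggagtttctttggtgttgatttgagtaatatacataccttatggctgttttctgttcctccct
The motifs searched were AAGGTCA of estrogen-related receptors, CCGGAAGT of GABP and other ETS factors, and GCGCATGCG of NRF1. The only match in these 3 promoters was 1 for AAGGTCA, in SLC25A34, on the other strand and first at 44 bases before the start. Of the 34 member promoters, 2 held AAGGTCA, SLC25A34 and SLC25A16 (5.88%, beside 3.86% of 20667 promoters of protein-coding genes). CCGGAAGT was found in 1 member promoter, that of SLC25A46 (4.49% of all promoters), and GCGCATGCG in 1, that of SLC25A44 (1.87% of all promoters). These are descriptions of letters in a window and not of binding.

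SLC25A1, the citrate carrier, moves citrate out of the matrix, where it can be cleaved to acetyl-CoA for fatty acid synthesis. It lies on chromosome 14 from 50974616 to 51002970 and had 1.84, 2.55 and 2.36 TPM in PP replicates 1 to 3, against 5.33, 7.37 and 3.18 TPM in IP replicates 1 to 3. Each PP library was below each IP library, with means of 2.25 ± 0.369 TPM in PP pigs, against 5.29 ± 2.09 TPM in IP pigs (SD, n = 3, log2 fold change -0.90, standard error 0.31, adjusted p = 0.596 from limma). Its unadjusted limma p was under 0.05 in 14 of 17 alternatives. ACLY, the enzyme that cleaves the exported citrate, had 2.11, 3.94 and 2.86 TPM in PP muscles, against 11.5, 10.7 and 6.44 TPM in IP muscles. The phases of ACLY did not overlap either (log2 fold change -1.40, standard error 0.31, adjusted p = 0.275 from limma). ME1, which makes cytosolic NADPH from malate, had 5.55, 16.8 and 9.46 TPM in PP replicates 1 to 3, against 42.6, 29.6 and 11.9 TPM in IP replicates 1 to 3, and here IP replicate 3 lay among the PP libraries.

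The other carriers of organic acids, SLC25A11 and SLC25A10, had log2 fold changes below 0 too, as did 82.6% of all loci, with a smaller size than SLC25A1. After median-ratio scaling they were -0.34 and -0.12. SLC25A11 had a log2 fold change of -0.66 (adjusted p = 0.783 from limma), and it ran from -1.04 without IP replicate 3 to -0.35 without IP replicate 2. SLC25A10, which exchanges malate or succinate for phosphate, had 3.46, 2.81 and 2.19 TPM in PP muscles, against 3.61, 4.67 and 3.54 TPM in IP muscles. Its phases did not overlap, although PP replicate 1 and IP replicate 3 were nearly equal (log2 fold change -0.38, standard error 0.25, adjusted p = 0.805 from limma), and after median-ratio scaling they overlapped.

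Among the carriers of amino acids, the 5 tested members had log2 fold changes from -0.90 for SLC25A12 to -0.08 for SLC25A13. SLC25A15, which exchanges ornithine for citrulline, had 0.592, 0.868 and 0.705 TPM in PP replicates 1 to 3, against 1.72, 2.11 and 1.03 TPM in IP replicates 1 to 3. All PP values were under 1 TPM and all IP values above it, so it passed the filter through the IP libraries alone. Its lack of overlap follows from that (log2 fold change -0.59, standard error 0.23, adjusted p = 0.679 from limma). Its unadjusted limma p was under 0.05 in 11 of 16 alternatives. SLC25A38, which imports glycine for haem synthesis, and SLC25A44, a carrier of branched-chain amino acids, had -0.31 and -0.42 on the log2 scale with overlapping phases (adjusted p = 0.805 and 0.807 from limma). SLC25A22 was low, with 0.492, 0.629 and 0.416 TPM in PP muscles, against 0.815, 1.31 and 0.608 TPM in IP muscles.

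**Figure D4:**
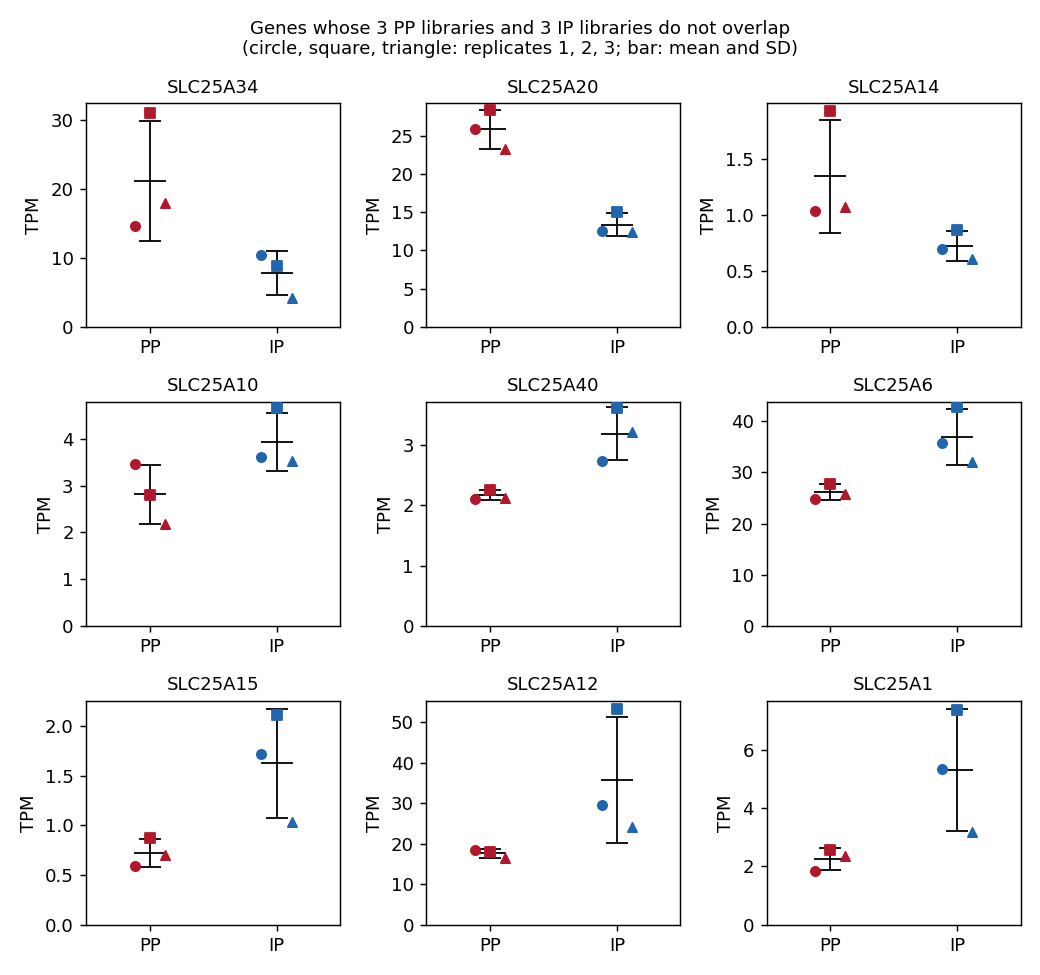
TPM in each library (points) with mean and SD (bars) of the 9 tested members whose 3 PP libraries (red, left) and 3 IP libraries (blue, right) do not overlap. SLC25A34, SLC25A20 and SLC25A14 are higher in each PP library and the other 6 genes are lower in each PP library.

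The 3 measured ADP/ATP carriers had log2 fold changes of both signs. SLC25A4 had a log2 fold change of 0.22 (adjusted p = 0.807 from limma), with overlapping phases. It was 0.55 after median-ratio scaling, 0.05 without IP replicate 1 and 0.07 without PP replicate 1. SLC25A6 (ANT3), a form found in many tissues, had 24.8, 27.8 and 25.9 TPM in PP replicates 1 to 3, against 35.8, 42.8 and 32.0 TPM in IP replicates 1 to 3. Each PP library was below each IP library (log2 fold change -0.47, standard error 0.22, adjusted p = 0.756 from limma), which no longer held after median-ratio scaling. SLC25A5 (ANT2), the form of growing cells, had 2.71, 4.28 and 2.90 TPM in PP muscles, against 4.24, 8.60 and 4.87 TPM in IP muscles, where PP replicate 2 was slightly above IP replicate 1 (log2 fold change -0.65, standard error 0.31, adjusted p = 0.764 from limma). These genes are close paralogs, and whether reads shared between them or with further copies were split is not stated, so the levels of SLC25A5 and SLC25A6 are uncertain. The phosphate carrier SLC25A3 had a log2 fold change of -0.15 (adjusted p = 0.810 from limma), and its sign turned with the scaling.

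Ratios of related carriers within a library do not depend on its total and were compared for the 5 of 7 chosen pairs in which both genes had at least 1 TPM in each library. The ratio of SLC25A12 to SLC25A13 was 12.04, 13.3 and 10.9 in the PP libraries and 20.3, 23.2 and 20.8 in the IP libraries. The ratio was thus lower in each PP library than in each IP library, with means on the log2 scale of 3.59 ± 0.15 at the PP and 4.42 ± 0.10 at the IP (SD, n = 3, difference -0.83, 2-sided exact permutation p = 0.1). The ratio of SLC25A4 to SLC25A6 was 67.3, 39.0 and 53.3 in the PP libraries and 25.7, 34.5 and 36.3 in the IP libraries. It was higher in each PP library, with a difference of 0.71 on the log2 scale (exact permutation p = 0.1). The ratio of SLC25A4 to SLC25A5 was 616, 254 and 476 in the PP libraries and 216, 172 and 239 in the IP libraries. It too did not overlap (difference 1.02, exact permutation p = 0.1). With a pseudocount of 5 the difference was 0.60 (exact permutation p = 0.2), and SLC25A5 is a low denominator. For SLC25A11 to SLC25A10 and for SLC25A3 to SLC25A4 the phases overlapped, with differences of -0.18 and -0.37 (exact permutation p = 0.7 and 0.3). With 3 libraries against 3 the smallest p is 0.1, so no ratio could pass 0.05.

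**Figure D5:**
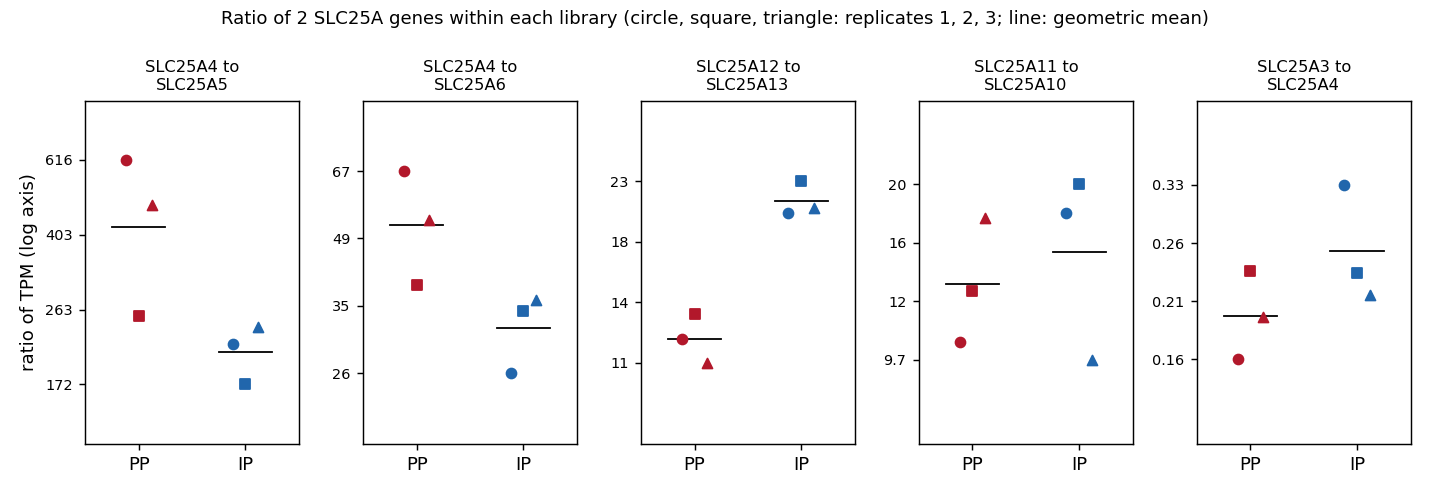
Ratio of TPM of related SLC25A genes within each library on log axes, with PP libraries (red) left of IP libraries (blue) and the geometric mean as a line. The phases are apart for SLC25A4 to SLC25A5, SLC25A4 to SLC25A6 and SLC25A12 to SLC25A13, and overlap for the other 2 ratios.

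The carriers of ATP-Mg and phosphate, which adjust the adenine nucleotide content of the matrix, all had log2 fold changes below the median of all loci. These were -0.59 for SLC25A25, -0.46 for SLC25A24 and -0.36 for SLC25A23, with overlapping phases. The value for SLC25A25 depended on single libraries and ran from -1.13 without PP replicate 2 to -0.19 without PP replicate 1.

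Of the 10 carriers of cofactors and nucleotides, 4 had log2 fold changes above 0 and 6 below, where 82.6% of all loci lay below 0. With the deposited TPM none had an unadjusted limma p under 0.05, beside 1.06% of all loci higher and 5.86% lower at the PP. SLC25A40, a glutathione carrier, had 2.11, 2.26 and 2.13 TPM in PP replicates 1 to 3, against 2.74, 3.62 and 3.22 TPM in IP replicates 1 to 3. It was lower in each PP library (log2 fold change -0.40, standard error 0.22, adjusted p = 0.789 from limma), but the phases overlapped after median-ratio scaling. Its close relative SLC25A39 had 5.98, 8.58 and 6.13 TPM in PP muscles, against 16.0, 17.95 and 5.35 TPM in IP muscles, where IP replicate 3 lay below the PP libraries. SLC25A42, which carries coenzyme A in exchange for adenine nucleotides, had 11.4, 8.77 and 9.70 TPM in PP replicates 1 to 3, against 4.67, 10.6 and 4.37 TPM in IP replicates 1 to 3, and only IP replicate 2 lay among the PP values, which no longer held after median-ratio scaling (log2 fold change 0.63, standard error 0.34, adjusted p = 0.789 from limma). The iron carrier SLC25A28 (mitoferrin-2) had 7.89, 6.74 and 6.71 TPM in PP muscles, against 8.12, 8.49 and 7.29 TPM in IP muscles, and its log2 fold change, -0.14 (adjusted p = 0.821 from limma), turned positive with median-ratio scaling. SLC25A46, which sits in the outer membrane and acts in mitochondrial shape, had a log2 fold change of 0.01, whose sign turned with the library left out. Among the members with no substrate assigned here, SLC25A45 and SLC25A43 had log2 fold changes of -0.49 and -0.14 with overlapping phases, and that of SLC25A43 was 0.07 after median-ratio scaling. Further cofactor and nucleotide carriers, SLC25A16, SLC25A17, SLC25A26, SLC25A32 and SLC25A33, lay between -0.28 and 0.36, all with overlap except SLC25A16 and SLC25A33 after median-ratio scaling, when SLC25A32 also turned positive. SLC25A16, SLC25A33, SLC25A39 and SLC25A42 were singled out after their values were seen.

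The sign of some log2 fold changes depended on how the libraries were scaled, while 25 of the 33 tested members kept theirs in each alternative. The median of all loci moved as well, from -0.26 to 0.01 with median-ratio scaling. After median-ratio scaling, 15 of the 33 log2 fold changes lay above 0 and 18 below, against 9 and 24 with the deposited TPM. Limma then gave an unadjusted p under 0.05 for 5 members higher at the PP (15.2%, beside 3.95% of all loci), as it did after quantile normalization (beside 4.1% of all loci), and for 4 with the 3 most abundant loci left out (12.1%, beside 2.33% of all loci). With median-ratio scaling these were SLC25A20 and SLC25A34 with SLC25A14 (0.58), SLC25A42 (0.93) and SLC25A33, a pyrimidine nucleotide carrier (0.62). The 3 members lower at the PP (9.09%, beside 4.02% of all loci) were the same as with the deposited TPM, SLC25A1 (-0.64), SLC25A12 (-0.58) and SLC25A15 (-0.41). SLC25A14 and SLC25A15 passed the filter through the libraries of 1 phase only, so the filter favoured their difference in these counts. No member passed the adjusted threshold. The lowest adjusted limma p was that of SLC25A34, 0.0837 with median-ratio scaling and 0.0796 with quantile normalization.

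Enzymes that make or use the carried metabolites were read as a list of 25 genes, 22 of which were tested. Of these, 1 was higher and 3 were lower at the PP at an unadjusted limma p under 0.05, beside 1.06% and 5.86% of all loci. None passed the adjusted threshold, and the median log2 fold change was -0.39, beside -0.26 over all loci. Beside CPT1A, ACLY and ME1 the fourth gene was GPD1, the cytosolic enzyme of the glycerol phosphate shuttle, which had 273, 309.7 and 272 TPM in PP replicates 1 to 3, against 627, 665 and 629 TPM in IP replicates 1 to 3 (log2 fold change -1.17, standard error 0.17, adjusted p = 0.0867 from limma). The enzymes of the malate-aspartate shuttle overlapped between the phases. MDH2, its matrix malate dehydrogenase, had 82.5, 90.7 and 83.3 TPM in PP muscles, against 169, 169 and 83.6 TPM in IP muscles, and GOT2, its matrix aminotransferase, had 57.6, 70.8 and 64.8 TPM in PP replicates 1 to 3, against 114, 107 and 42.1 TPM in IP replicates 1 to 3. IP replicate 3 lay within the range of the PP libraries for MDH2 and below them for GOT2. CPT1B, CPT2, CRAT, MDH2 and GOT2 were named after their values were seen.

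Markers of other cell types also differed between the libraries. Of 5 fibroblast markers, the collagens COL1A1, COL1A2 and COL3A1 were lower in each PP library than in each IP library, as were 10.8% of all loci. DCN, the matrix proteoglycan decorin, had 211, 146 and 172 TPM in PP muscles, against 112, 173 and 151 TPM in IP muscles, a log2 fold change of 0.28 with overlap. DCN was the most abundant of the 5 markers in each library, and their sum was 194 to 305 TPM in PP libraries, against 236 to 409.6 TPM at the IP. Of 5 measured adipocyte markers, 4 had log2 fold changes below 0 and 1 above. CIDEC was lower in each PP library (-1.44), as were 10.8% of all loci. FABP4 went the other way (0.39, with overlap), with 483, 201 and 335 TPM in PP muscles, against 177, 264 and 307 TPM in IP muscles. FABP4 was the most abundant of the 5 in each library, and their sum was 261 to 541 TPM in PP libraries, against 272 to 370.1 TPM at the IP. Endothelial, macrophage and red blood cell markers, with 4, 3 and 4 measured, overlapped between the phases in each tested gene, and none of the markers measured was at 0 in all libraries. Their part in the results for the carriers was not tested.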

How the data were processed

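RNA of the longissimus dorsi of 3 PP and 3 IP pigs was enriched on oligo(dT) beads and sequenced by the authors. The deposited values are TPM per gene, computed by the authors with 1 column per library. Reads were aligned with TopHat and assembled with Cufflinks, and the tool that wrote the TPM is not given in the sources used here. The submitters' processing notes name Sscrofa11.1 and the methods an earlier pig build, so RefSeq coordinates and promoters (Sscrofa11.1) were joined by gene symbol only.

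On the log2(TPM + 1) scale, the 10896 loci reaching 1 TPM in 3 or more of 6 libraries entered a limma fit (version 3.58.1, R 4.3.3, eBayes with a trend, 2-sided, no block, Benjamini-Hochberg, threshold 0.05). Its script was run on simulated data with 200 changed genes. At that threshold it recovered 0% of them at a 2-fold change, 70% at 4-fold (14 false calls) and 85.5% at 8-fold (8 false calls). A member that changed 2-fold could therefore go uncalled. The count-type tests of the methods need reads, which TPM do not hold. Ratios within a library were tested by exact permutation (scipy 1.17.1 under Python 3.11.15). Members given per library were the 8 most abundant, those with an unadjusted p under 0.05, those without overlap and those of the ratio pairs, with up to 4 genes of each list by p. Alternatives were pseudocounts of 0.1 and 5, 3 other filters, 2 other scalings, abundant or mitochondrially encoded genes left out, 2 variance models, a replicate block and each library left out. The authors' TPM keep no depth. Values of 1 member are counted in the summaries but are not reported here. The members, gene lists and tests were chosen with earlier results of these data known.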

Additional observations from a re-analysis of the deposited data

How the results depend on the processing

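Of the 33 members, 0 passed an adjusted p under 0.05 in any of the 18 alternatives. The members higher at the PP at an unadjusted limma p under 0.05 numbered 2 with the deposited TPM (1.06% of all loci). They numbered 5 with median-ratio scaling (3.95% of all loci), 5 with quantile normalization (4.1%) and 4 with the 3 most abundant loci left out (2.33%). With 1 library left out they numbered 2 to 3, beside 52 to 149 of 10896 loci. The members lower at the PP numbered 3 (5.86% of all loci). With a mean TPM of at least 5 they numbered 1 of 14 tested, beside 412 of 5765 loci. With 1 library left out they numbered 0 to 8. These were 0 without PP replicate 3 (2.37% of all loci), 1 without PP replicate 1 (3.45%), 1 without IP replicate 1 (4.14%) and 8 without IP replicate 3 (21%). The median log2 fold change of the members ran from -0.43 to -0.10 with 1 library left out and was -0.02 with median-ratio scaling. With median-ratio scaling, quantile normalization and the 3 most abundant loci left out, the log2 fold change turned positive for SLC25A3 (0.18, 0.060 and 0.030), SLC25A28 (0.15, 0.14 and 0.017) and SLC25A13 (0.14, 0.15 and 0.048), and for SLC25A13 it was 0.094 without IP replicate 2, with a range of -0.21 to 0.094 over the single libraries left out. The ratio of SLC25A11 to SLC25A10 ran from -0.49 to 0.016 on the log2 scale, with 0.016 without IP replicate 2. Leaving out 1 library gave log2 fold changes of -1.13 to -0.19 for SLC25A25, -1.04 to -0.35 for SLC25A11, -0.66 to -0.02 for SLC25A36, -1.13 to -0.58 for SLC25A12, -0.82 to -0.39 for SLC25A5 and 0.05 to 0.39 for SLC25A4. The cause of these shifts was not tested. The sign also turned for SLC25A16 in 1 of 17 alternatives, SLC25A27 in 6 of 16, SLC25A32 in 6 of 17, SLC25A43 in 5 of 16 and SLC25A46 in 5 of 18. The remaining 25 of the 33 tested members kept their sign in each alternative that tested them.

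Muscle was sampled after slaughter at either age, so PP and IP libraries came from different pigs and replicate numbers were not taken as pairs. Deviations of libraries with the same number correlated with r = -0.53, 0.20 and 0.22 for replicates 1, 2 and 3 across loci. For PP replicate 1 with IP replicate 3 r was 0.64, so these correlations alone cannot decide pairing. Over the whole table, 16 loci passed the adjusted threshold, beside 3 with the replicate block, 0 where each library had to reach 1 TPM, 4 with a pseudocount of 5, 6 with a mean TPM of at least 5 and 2 to 22 with 1 library left out. With the replicate block, 2 members were higher and 4 lower at the PP at an unadjusted p under 0.05, beside 104 and 751 of 10896 loci. Of the members, 0 passed the adjusted threshold. TPM hold no read numbers, so members under 2 TPM cannot be given a counting error.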

Other observations

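Some family members carry other symbols. UCP3, the uncoupling protein of muscle, had 42.8, 189 and 73.3 TPM in PP replicates 1 to 3, against 136, 71.6 and 54.1 TPM in IP replicates 1 to 3. PP replicate 2 was the highest library and PP replicate 1 the lowest, and the phases overlapped (log2 fold change 0.06). MTCH1, which sits in the outer membrane, had 6.39, 12.7 and 7.41 TPM in PP muscles, against 16.2, 16.4 and 5.43 TPM in IP muscles. UCP2 was near or under 1 TPM in each library and was not tested.

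Newly made carriers are guided to the inner membrane by receptors and small chaperones such as TOMM70, TIMM10 and TIMM22. Of 14 tested genes of this import route, 0 had an unadjusted limma p under 0.05 and none was without overlap, with a median log2 fold change of -0.15. Over all loci, 1.06% were higher and 5.86% lower at the PP at that p, and 2.02% and 10.8% were without overlap. Counts of 0 among so few genes therefore say little. Of 16 tested genes of other mitochondrial membrane transporters, 0 had an unadjusted limma p under 0.05. Of the 16, 2 were lower in each PP library, VDAC3 and SMDT1, beside 10.8% of all loci. VDAC3, a pore of the outer membrane, had 117, 139 and 124 TPM in PP replicates 1 to 3, against 173, 170.3 and 158 TPM in IP replicates 1 to 3. SMDT1, named after its values were seen, had 169, 151 and 170 TPM in PP muscles, against 173, 175 and 198 TPM in IP muscles. MPC2, a subunit of the pyruvate carrier, had 527, 272 and 415 TPM in PP muscles, against 216, 288 and 317 TPM in IP muscles, the opposite sign to most of the list (0.53). Of 9 tested ATP synthase subunits, 0 had an unadjusted p under 0.05 and all 9 log2 fold changes lay below 0, as did 82.6% of those of all loci (median -0.32, beside -0.26 over all loci).

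Of 8 tested regulators of mitochondrial genes, 0 had an unadjusted limma p under 0.05, beside 1.06% of all loci higher and 5.86% lower at the PP. PPARGC1A, a coactivator of mitochondrial genes, had 2.49, 4.57 and 3.08 TPM in PP replicates 1 to 3, against 5.63, 15.7 and 3.69 TPM in IP replicates 1 to 3, and IP replicate 2, the highest library for most carriers, was the highest here too.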
